A study of Mus musculus with 6 samples.

Results

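The 10 genes Ier2, Ier5, Gadd45a, Gadd45b, Gadd45g, Btg1, Btg2, Klf2, Klf4 and Klf6 are general response genes, switched on quickly by growth signals, stress or DNA damage in many cell types. All probe sets that the array annotation assigns to 1 of these symbols alone were taken, which gave 22 of 45037 probe sets. Each of the 10 genes had at least 1 probe set with a mean of 50 or more in a treatment group, the limit used for testing, and 19 of the 22 probe sets passed it.

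The arrays held ribosome-bound RNA from the cortex of mice in which the S100a10 driver, in the bacterial artificial chromosome line ES691, marks cells by a tagged ribosome (translating ribosome affinity purification, TRAP). All mice, the controls included, also carried the constitutive knockout of p11, the protein encoded by S100a10, on a C57BL/6 background reached from FVB over 3 to 5 generations of backcrossing. The FLX group drank fluoxetine, a selective serotonin reuptake inhibitor, at 0.167 mg/ml in 1% saccharine, and the VEH group drank 1% saccharine alone, both for 15 to 18 days. Each group had 3 arrays labelled as biological replicates, while the labels give neither the age of the mice nor how many went into an array. Wild-type mice were not analysed here, so the comparison asks what fluoxetine does in these cells when p11 is absent.

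These genes encode short-lived regulators. Ier2 and Ier5 are immediate early response proteins. The Gadd45 proteins bind cell cycle and repair factors and activate the stress kinase MAP3K4, and Gadd45b is also known as an activity-induced gene of neurons linked to DNA demethylation. Btg1 and Btg2 restrain proliferation and recruit the CCR4-NOT complex, which shortens the poly(A) tails of mRNAs. Klf2, Klf4 and Klf6 are zinc finger transcription factors of the Krüppel-like family. Klf2 is a well-known gene of endothelial cells under flow, where MEF2 factors drive it.

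Promoter windows from 250 bases before to 50 after the start were found in the RefSeq table (build GRCm38.p6) for 9 of the 10 genes, all but Ier2. Stretches of 120 bases are shown for Klf2 and Klf4, whose values moved together across the arrays, and for Btg2 and Gadd45b, which were lower in FLX in all 3 replicate numbers. They are Klf2 at chr8:72318892-72319011 on the plus strand (bases -170 to -51 from the start), Klf4 at chr4:55532606-55532725 on the minus strand (-250 to -131), Btg2 at chr1:134079236-134079355 on the minus strand (-200 to -81) and Gadd45b at chr10:80929971-80930090 on the plus strand (-120 to -1). Capitals mark a MEF2 site in Klf2, a CRE core on the opposite strand and GC boxes in Klf4, a cyclic AMP response element (CRE) and GC boxes in Btg2, and a TATA box in Gadd45b.
Klf2: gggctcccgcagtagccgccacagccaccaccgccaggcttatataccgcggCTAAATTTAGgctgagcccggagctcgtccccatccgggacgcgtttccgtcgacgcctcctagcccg
Klf4: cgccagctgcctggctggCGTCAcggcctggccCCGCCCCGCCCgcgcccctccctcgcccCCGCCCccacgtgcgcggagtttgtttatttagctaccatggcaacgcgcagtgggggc
Btg2: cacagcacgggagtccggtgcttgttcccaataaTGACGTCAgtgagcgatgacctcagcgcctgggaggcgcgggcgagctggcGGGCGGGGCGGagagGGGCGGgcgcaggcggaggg
Gadd45b: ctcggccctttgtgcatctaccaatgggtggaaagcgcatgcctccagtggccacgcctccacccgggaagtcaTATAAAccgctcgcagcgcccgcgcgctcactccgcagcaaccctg

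Motifs were searched on both strands of the 300 bases. The full CRE, TGACGTCA, was found in Btg2 alone among the 9 member windows, against 1.79% of all 32851 windows in the table, and the MEF2 site in Klf2 alone, against 3.19%. The CRE core TGACG, which also lies inside the full CRE, was in 4 of 9 (Btg1, Btg2, Klf2, Klf4) against 20.8%. The TATA box TATAAA was in 3 of 9 (Gadd45b, Gadd45g, Btg1) against 13.6%, and the GC box GGGCGG in 8 of 9 against 35.7%, with overlapping copies in Klf4 and Btg2. The AP-1 site TGANTCA and the serum response element (CArG box) were in 0 of 9, against 7.81% and 1.63%. These are matches of letters and not measured binding sites.

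The arrays of replicate 3 stood apart in both groups. Over the 22200 tested probe sets, arrays of replicates 1 and 2 correlated at r = 0.987 to 0.995, the replicate 3 arrays at 0.867 to 0.916 with them and at 0.973 with each other. Array medians were 38.5 to 41.9. Neuron markers were above the limit of 50 in 6 of 6 genes, with summed values of 91814 to 110984 over the 6 arrays. Leptomeningeal and fibroblast markers were above it in 8 of 8, so the purified material also held RNA of genes known from the membranes around the brain. The deposited description itself warns of some non-neuronal cells. The brightest probe set of S100a10, of a type that can match other transcripts, ran from 349 to 3111 over the 6 arrays and the other 2 from 4.98 to 49.4. The labels do not place these probes relative to the deletion.

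Fluoxetine arrays had lower values than the vehicle arrays of the same replicate number for 7 of the 10 genes in all 3 numbers. These were Ier2, Gadd45b, Gadd45g, Btg1, Btg2, Klf2 and Klf4, each read from its brightest probe set. Such a pattern was seen in 13.6% of the 12214 tested genes, and the opposite one in 20.2% of all genes and in 0 of the 10. Ier2 and Gadd45b were also lower in every FLX array than in any VEH array, which held for 1.65% of all genes. No member (0 of 10) had all FLX arrays above all VEH arrays, against 2.61% of all genes. The median log2 difference (FLX minus VEH) of the 10 genes was -0.38, against 0.05 over all tested genes, with 8 negative and 2 positive where 42.0% of all tested genes were negative. These genes and the related lists below were chosen with earlier results of these data known. Counts set against all genes therefore describe the lists and are no independent test.

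No difference passed the test. Of the 22200 probe sets 0 passed limma's adjusted p of 0.05, a share of 0%, both without and with the replicate number as a block in the fit. Every member had an adjusted p of 1.000 without the block, and the smallest member value with it was 0.623. At an unadjusted p under 0.05, 1 of the 10 genes (Ier2) stood against 0.303% of all genes without the block, and 5 (Ier2, Gadd45b, Gadd45g, Klf2, Klf4) against 7.60% with it. Deviations of the arrays from their group means correlated within each number, but number 1 of VEH correlated more closely with number 2 of FLX than with its own. Because replicate 3 stood apart in both groups, these correlations cannot show that numbers 1 and 2 are pairs.

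**Figure D1:**
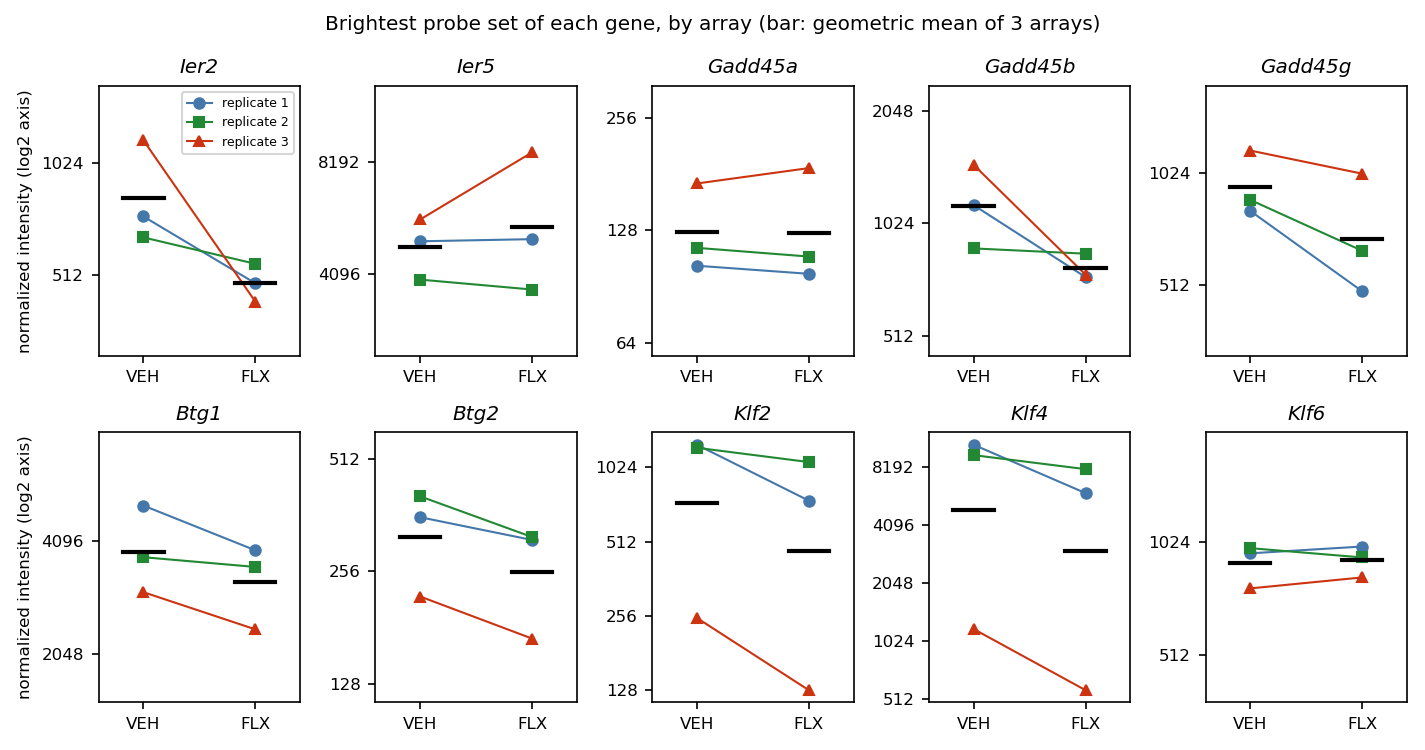
Normalized intensity (log2 axis) of the brightest probe set of each gene in each array, VEH on the left and FLX on the right of each panel, with lines joining arrays of equal replicate number and black bars at the geometric mean of 3 arrays. Lines slope down from VEH to FLX in all 3 numbers for 7 genes, and the replicate 3 points of Klf2 and Klf4 lie far below the others.

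Ier2, an immediate early gene whose product is a nuclear regulator of transcription, had normalized intensities of 487, 549 and 435 in FLX replicates 1, 2 and 3. In VEH replicates 1, 2 and 3 they were 735, 646 and 1175. The highest FLX value lay below the lowest VEH value, and VEH replicate 3 stood highest of the 6 arrays. The means were 491 ± 56.8 in FLX and 852 ± 283 in VEH (SD, n = 3), a level 1.69-fold higher in VEH by geometric means. The log2 difference was -0.75 (SE 0.28, 95% interval -1.44 to -0.07), with an adjusted p of 1.000 by limma. By replicate number the log2 differences were -0.59, -0.23 and -1.43. Without VEH replicate 3 the difference was -0.50, and without both replicate 3 arrays -0.41.

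Ier5, a heat shock and stress regulated relative of Ier2, did not follow it. Its brightest probe set, 1417612_at, gave 5092, 3733 and 8692 in FLX and 5025, 3968 and 5748 in VEH. The groups overlapped, and replicate 3 was the highest array of each group. The log2 difference was 0.18 (SE 0.36, interval -0.69 to 1.05), and 0.02, -0.09 and 0.60 by replicate number. The probe set 1460009_at gave 0.16 (SE 0.45), and the remaining one, 1417613_at, had group means of 38.0 and 34.6 and was not tested. Without both replicate 3 arrays the 2 tested probe sets gave -0.03 and -0.10, so the sign of the Ier5 difference came with replicate 3.

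Of the 3 Gadd45 genes, Gadd45b had the largest difference with all 6 arrays, but Gadd45g had it without both replicate 3 arrays (-0.58 against -0.34). Gadd45b probe set 1450971_at gave 735, 849 and 746 in FLX and 1145, 877 and 1468 in VEH. The groups did not overlap, though FLX replicate 2 and VEH replicate 2 lay close together. The log2 difference was -0.55 (SE 0.25, interval -1.16 to 0.05), a 1.47-fold higher level in VEH, and -0.64, -0.05 and -0.98 by number. The probe set 1449773_s_at, which can match several transcripts, gave -0.72 (SE 0.31) with values of 647, 661 and 554 against 1029, 695 and 1492, again without overlap. A dim probe set, 1420197_at, ran from 11.1 to 22.0 over the 6 arrays and was not tested. Without VEH replicate 3 the difference of 1450971_at was -0.37.

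Gadd45g, a relative that likewise arrests cell division, had 493, 633 and 1018 in FLX and 809, 866 and 1174 in VEH. The groups overlapped because FLX replicate 3 exceeded the VEH arrays of replicates 1 and 2, yet within each number FLX was lower, by log2 differences of -0.71, -0.45 and -0.21. The overall log2 difference was -0.46 (SE 0.33, interval -1.26 to 0.34), and -0.75 without FLX replicate 3 and -0.22 without FLX replicate 1. Gadd45g thus differed least in replicate 3, where Ier2 and Gadd45b differed most. Gadd45a, the classical p53-regulated member, gave 98.0, 109 and 188 in FLX and 103, 115 and 171 in VEH. Its log2 difference was -0.01 (SE 0.34), and the interval of -0.84 to 0.82 leaves room for a 1.5-fold change in either direction.

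Btg1 and Btg2, which slow cell division, were lower in FLX in all 3 numbers by their brightest probe sets. Btg1 probe set 1437455_a_at gave 3876, 3498 and 2381 in FLX and 5106, 3714 and 2994 in VEH, with overlapping groups. Its log2 difference was -0.27 (SE 0.30, interval -1.01 to 0.46), and -0.40, -0.09 and -0.33 by number. Without VEH replicate 1 it was -0.07 and without FLX replicate 3 -0.06. The second Btg1 probe set, 1426083_a_at, gave -0.16 (SE 0.35) and was lower in FLX in numbers 1 and 2 but not in 3, where the difference was 0.03. The third, 1442018_at, had means of 8.94 and 10.3 and was not tested.

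The 2 probe sets of Btg2 disagreed on replicate 3. Probe set 1448272_at gave 310.3, 316 and 169 in FLX and 357, 406 and 219 in VEH, so replicate 3 was the lowest array of both groups. Probe set 1416250_at gave 148, 177 and 131 in FLX and 177, 198 and 299.5 in VEH, so VEH replicate 3 was the highest of the 6. Both were lower in FLX in all 3 numbers, with log2 differences of -0.31 (SE 0.37) and -0.54 (SE 0.27). Without FLX replicate 3 the difference of the brightest, 1448272_at, was -0.02. By number they were -0.20, -0.36 and -0.37 for the former and -0.25, -0.16 and -1.19 for the latter. The annotation used here does not separate the transcripts they read.

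**Figure D2:**
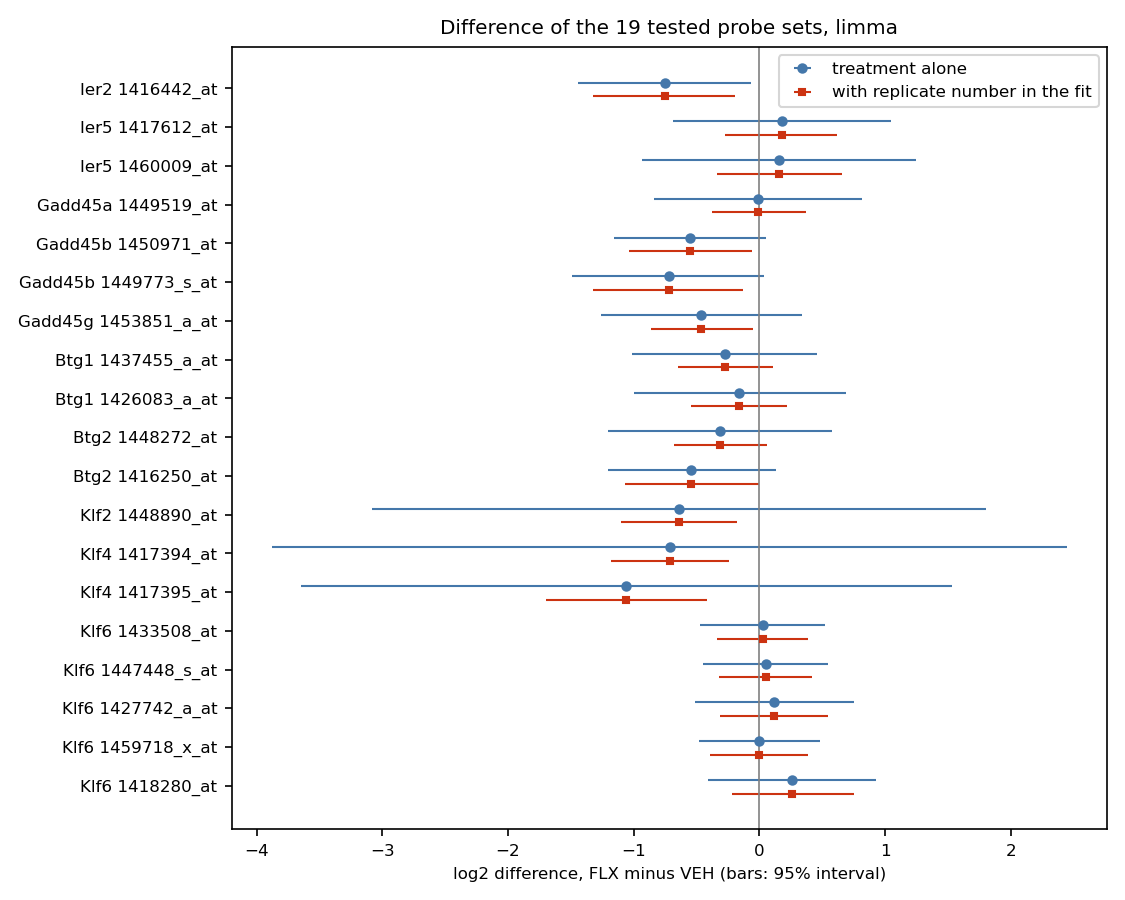
Log2 difference (FLX minus VEH, horizontal axis) with its 95% interval for the 19 tested probe sets, from limma with treatment alone (circles) and with the replicate number added (squares). The estimates are the same in both fits, and the intervals of Klf2 and Klf4 shrink from -3.08 to 1.80 and -3.88 to 2.45 to -1.10 to -0.18 and -1.18 to -0.24.

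Klf2 and Klf4 had the widest spread of the 10 genes, and it lay between replicate numbers. Klf2 gave 749.6, 1074 and 128 in FLX and 1262, 1227 and 251 in VEH. Klf4, a relative with overlapping targets that is also a reprogramming factor, gave 6014, 8008 and 568 in FLX and 10723, 9471 and 1180.5 in VEH by its probe set 1417394_at. In both genes replicate 3 was far below the other arrays of its group, while within each number FLX was below VEH. The levels in replicates 1 and 2 were 7.00-fold (FLX) and 4.95-fold (VEH) those in replicate 3 for Klf2, and 12.2-fold and 8.54-fold for Klf4.

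For Klf2 the log2 difference between treatments was -0.64 (SE 1.00), and -0.75, -0.19 and -0.97 by number. For Klf4 it was -0.71 (SE 1.30), and -0.83, -0.24 and -1.06 by number. With the replicate number in the fit the SE was 0.20 for both, with adjusted p of 0.623 by limma for each. The dimmer Klf4 probe set, 1417395_at, gave 464, 564 and 51.6 against 797, 788 and 194, a log2 difference of -1.06 (SE 1.06). Leaving out FLX replicate 3 alone turned the sign, to 0.30 for Klf2 and 0.49 for Klf4, since the low replicate 3 array then remained in VEH only. Without VEH replicate 3 the differences were -1.41 and -1.74, and without both replicate 3 arrays -0.47 and -0.54.

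Leptomeningeal and fibroblast markers were, like Klf2 and Klf4, far lower in replicate 3. In both groups the replicate 3 array was the lowest for 8 of 8 listed markers, against 37.6% of all tested genes. The markers' median log2 differences were -3.60 in FLX and -3.34 in VEH, beside -2.81 and -2.31 for Klf2 and -3.61 and -3.09 for Klf4. Their summed values ranged from 2121 to 38689 in FLX and from 4511 to 40815 in VEH, the low ends being replicate 3. By replicate number the median marker differences between treatments were -0.61, 0.14 and -0.44. Of the 6 pericyte and smooth muscle markers, 3 were above the limit (Kcnj8, Abcc9 and Myh11 were not), with sums of 1913 to 4035 in FLX and 1936 to 6200.2 in VEH and median differences of -1.12, -0.44 and -0.42 by number. Of 7 endothelial markers on the array 3 were above it, and Pecam1, Tek, Flt1 and Cdh5 were below, with sums of 203 to 443 in FLX and 139 to 541 in VEH. The median differences of those 3 were -0.51, 0.05 and 1.12 by number. These 2 lists were also lower in replicate 3 than in replicates 1 and 2. The median log2 differences were -2.01 in FLX and -2.47 in VEH for the 3 pericyte and smooth muscle markers. For the 3 endothelial markers they were -0.59 and -2.74. In each list 2 of the 3 genes had replicate 3 lowest in both groups, against 37.6% of all tested genes. For 1 pericyte and smooth muscle marker it was highest in both, against 36.7%. The part of these cells in the Klf2 and Klf4 values was not tested, and in purified RNA fewer cells of a type and less RNA per cell cannot be told apart.

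**Figure D3:**
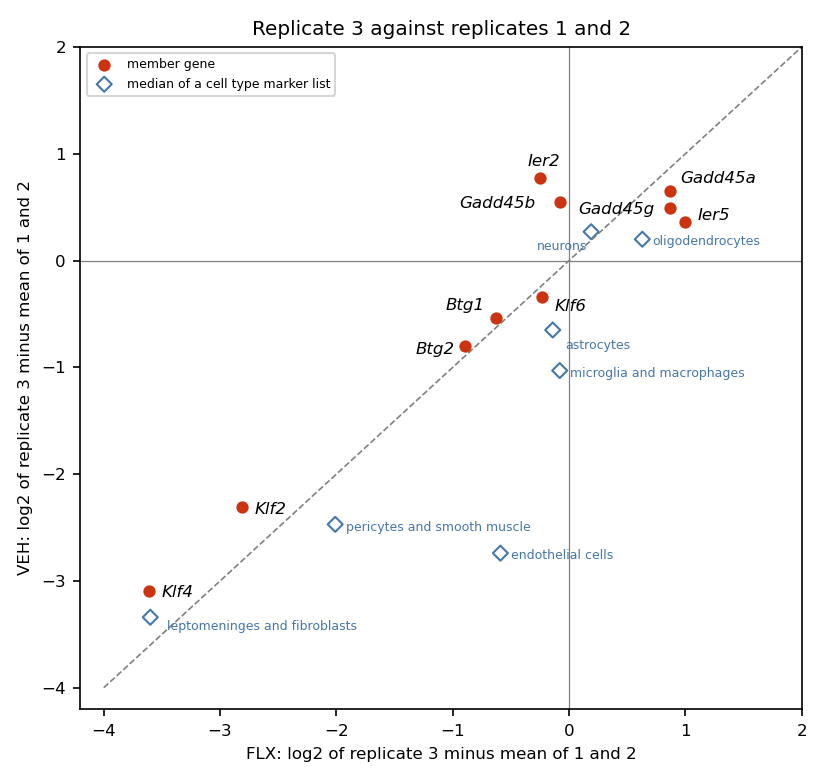
Log2 value of replicate 3 minus the mean of replicates 1 and 2, in FLX (horizontal axis) and VEH (vertical axis), for the 10 genes (filled circles) and for the medians of cell type marker lists (open diamonds), with the dashed line at equality. Klf4 lies at -3.61 and -3.09 beside the leptomeningeal marker median at -3.60 and -3.34, while Gadd45a, Gadd45g and Ier5 are above 0 in both groups.

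Klf6, a relative induced by injury and growth factors, had a difference near 0 by its brightest probe set. This probe set, 1433508_at, gave 998, 933 and 825 in FLX and 957, 988 and 771 in VEH, with overlapping groups. The log2 difference was 0.03 (SE 0.20, interval -0.47 to 0.52), and 0.06, -0.08 and 0.10 by number. The other 4 probe sets gave 0.05, 0.12, 0.00 and 0.26, with SE of 0.20 to 0.27. The value of 0.26 came from the dimmest, 1418280_at, with means of 104 in FLX and 87.7 in VEH.

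Replicate 3 split the list by gene. It was below replicates 1 and 2 in both groups for Btg1, Btg2, Klf2, Klf4 and Klf6, 5 of 10 against 37.6% of all genes, and above them in both for Ier5, Gadd45a and Gadd45g, 3 of 10 against 36.7%. These shares are near those of all genes. By the brightest probe sets Ier2 and Gadd45b differed from the other 8 genes, with replicate 3 lower than the mean of replicates 1 and 2 in FLX (-0.25 and -0.08) and higher in VEH (0.77 and 0.55), as did the dimmer Btg2 probe set (-0.30 and 0.68). With 1 replicate 3 array per group this contrast has no test.

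Without replicate 3, FLX was below VEH in both remaining numbers for 8 of 10 genes, against 30.3% of all genes. Of these, 7 had been counted as lower in all 3 numbers and so had to be among them, and the other was Gadd45a. Differences of Ier2, Gadd45b, Klf2 and Klf4 were nearer 0 without it (-0.41, -0.34, -0.47 and -0.54). Both FLX arrays were below both VEH arrays for 6 of 10 (Ier2, Gadd45b, Gadd45g, Btg2, Klf2 and Klf4), against 19.5%. Ier2 and Gadd45b did not overlap with all arrays either, and so had to be among these 6. The median difference of the 10 genes was -0.50, -0.14 and -0.35 in numbers 1, 2 and 3, where all tested genes had 0.01, -0.01 and 0.15.

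**Figure D4:**
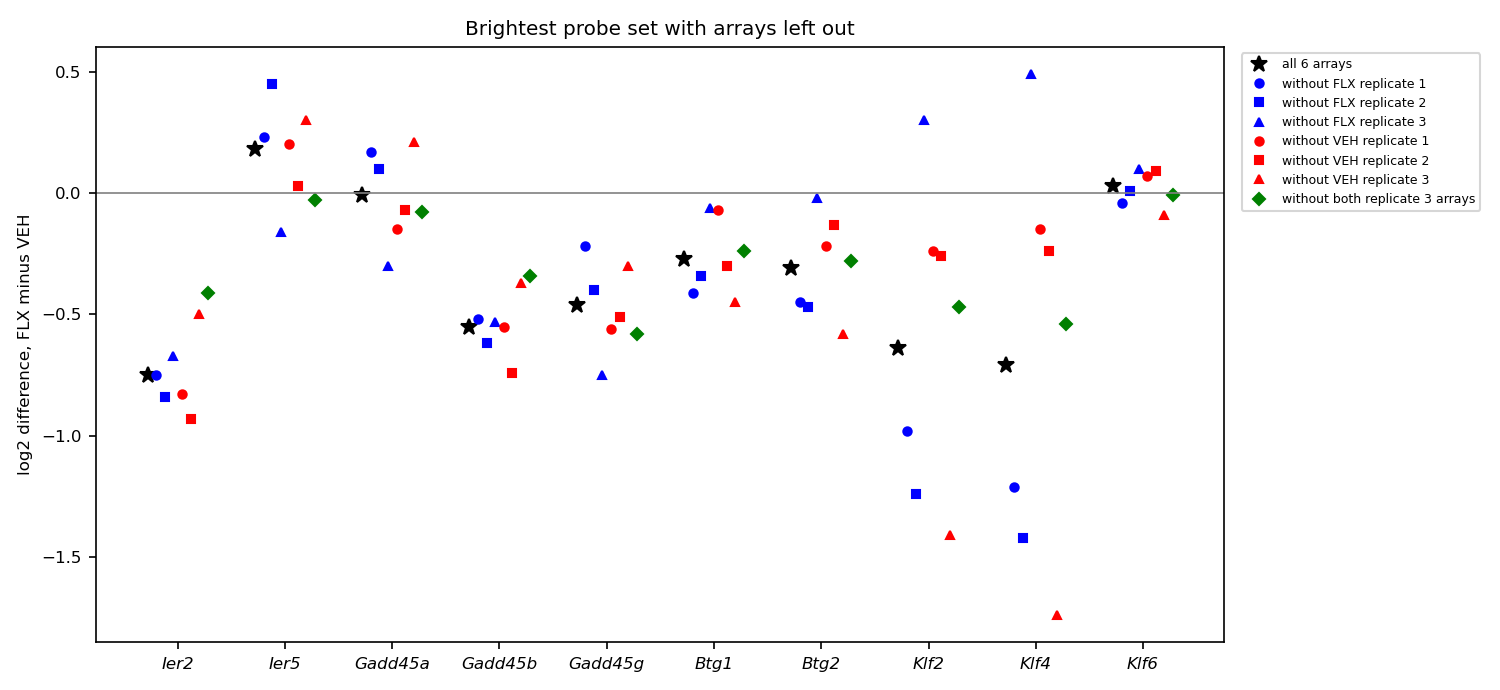
Log2 difference (FLX minus VEH, vertical axis) of the brightest probe set of each gene with all 6 arrays (stars), with each array left out in turn (circles, squares and triangles for replicates 1, 2 and 3, blue for FLX and red for VEH) and without both replicate 3 arrays (diamonds). Ier2 runs from -0.93 to -0.50 with 1 array left out and Klf4 from -1.74 to 0.49.

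Related genes did not share one direction. In each list the count of negative genes stands against 42.0% of all tested genes, whose median log2 difference was 0.05. Of 13 tested Krüppel-like and Sp relatives 10 were negative, with a median log2 difference of -0.05. In that list 3 were lower in all numbers, against 13.6% of all genes. The relatives of smallest p were Sp4, a GC box factor, with a log2 difference of 0.35 (SE 0.24), and Sp1, its ubiquitous relative, at -0.51 (SE 0.57). Of 10 tested Btg/Tob relatives and deadenylation partners 7 were negative (median -0.04). Tob2 and Tob1, antiproliferative relatives of Btg1, had the smallest p, with log2 differences of -0.56 (SE 0.25) and -0.35 (SE 0.26). Tob2 had 2135, 2629.5 and 1561 in FLX against 3154, 2901 and 3075 in VEH. All its FLX arrays were thus below all VEH arrays, as for 1.65% of all tested genes. Of 3 other genes with symbols starting with Ier, Ier3 had a difference of -0.46 (SE 1.00) and Ier5l -0.65 (SE 0.71). Ier5l had VEH replicate 3 at 702 and the other 5 arrays between 108 and 212.

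Of 10 tested Gadd45 partners and downstream kinases 2 were negative and 8 positive (median 0.11), those of smallest p being Map2k6, a p38 activating kinase, at 0.49 (SE 0.25) and Map2k4, which activates JNK, at 0.36 (SE 0.31). Of 11 p53 targets 7 were negative (median -0.03). Phlda3, an inhibitor of AKT signalling, had 293 ± 12.8 in FLX and 383 ± 17.8 in VEH (SD, n = 3), a log2 difference of -0.39 (SE 0.17). Zmat3, an RNA-binding protein, had 4433 ± 347 and 3713 ± 521, a log2 difference of 0.26 (SE 0.20). Among 7 genes of the ERK5 and MEF2 route to Klf2 and Klf4, 3 were negative (median 0.06), Map3k3 being at -0.65 (SE 0.38) and Mef2c at 0.27 (SE 0.19). Of 9 SRF, ternary complex factor and CREB genes 5 were negative (median -0.01), Elk3 being at -0.64 (SE 0.48) and Elk1 at 0.25 (SE 0.23). In each of these lists 0 genes passed limma's adjusted p in either direction, with or without the block.

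Most other early genes tested were also negative. Of 5 tested AP-1 genes 4 were negative (median -0.18), against 42.0% of all tested genes. Jun, at 0.18 (SE 0.25), and Jund, at -0.79 (SE 0.34), had the smallest p. Jund was lower in all FLX arrays at 5821, 4569.7 and 3087 against 6075, 6619 and 10482, as were 1.65% of all tested genes. All 9 of 9 Egr, Nr4a, Arc and Npas4 genes were negative (median -0.33), 6 of them in all 3 numbers. The shares over all tested genes were 42.0% and 13.6%. Those of smallest p in that list were Npas4, an activity-induced transcription factor, at -0.85 (SE 0.70), and Egr2, a zinc finger factor, at -0.66 (SE 1.08). In replicate 3 that list had median log2 differences from replicates 1 and 2 of 1.72 in FLX and 2.07 in VEH. The 10 response genes had -0.24 and 0.01. Replicate 3 was above both other arrays in both groups for 7 of the 9 genes, against 36.7% of all tested genes. The difference between these lists was not tested.

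Genes with the most alike pattern were sought over the 6 arrays, by the root mean square (RMS) difference of log2 values centred on their mean. For Klf4 they were Twist1 (0.06), Six2 (0.07), Foxd1 (0.08) and Prdm6 (0.09), where the median gene had 1.64. Foxd1 is among the leptomeningeal markers, and Twist1 and Six2 encode transcription factors of mesenchymal tissue. For Klf2 they were Fxyd1 (0.05), Pycard (0.05), Cdc42ep5 (0.06) and Nfatc4 (0.09), against a median of 1.28. The low replicate 3 arrays that these genes share with Klf4 and Klf2 are a feature that the search selects for. A cell source of this pattern was not tested. For Ier2 they were Zfp651 (0.08), Ptcd1 (0.13), Thap7 (0.13) and Pgls (0.14), against 0.62. All have VEH replicate 3 as their highest array, which is a feature of Ier2 that the search itself selects for. For Gadd45b they were Ccn4 (0.06), Cdkn1b (0.09), Erdr1 (0.10) and Rai2 (0.11), against 0.52, Cdkn1b being an inhibitor of cell cycle kinases.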

How the data were processed

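Expression was measured on 6 Affymetrix mouse arrays, 3 FLX and 3 VEH, from 15 ng of purified RNA per array, amplified and labelled with biotin per the labels' protocols. The table deposited by the authors holds 1 GCRMA-normalized intensity per probe set and array, per the submitters' processing notes, without a version or settings. Its values are linear, as read from their range. GCRMA in its standard form makes the arrays' distributions alike, so a shift shared by all genes would not be seen. Arrays have no read depth, and their number limits the precision.

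Probe sets with a group mean of 50 or more, the limit the submitters advise, were tested (22200, control probe sets left out) with limma 3.58.1 in R 4.3.3 on log2 values without a pseudocount, treatment being the only term, two-sided, with Benjamini-Hochberg adjustment over all tested probe sets. The submitters' list of neuronal probe sets was not used here. A gene is read by its tested probe set with the highest mean. Of the 45037 probe sets 34945 have 1 symbol in the platform annotation, 932 several and 9160 none. The fit was tested on simulated data. Every member was named, with the 2 genes of smallest p in each related list and the 4 most alike genes of 4 members. The members and lists were chosen with earlier results of these data known. P-values measure the spread between these arrays.

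The groups share replicate numbers 1 to 3, whose meaning the labels do not give. Deviations from the group means correlated at 0.70, 0.84 and 0.87 within numbers, above the limit of 0.1 for pairing. They also correlated at 0.76 between VEH replicate 1 and FLX replicate 2 and at 0.64 between FLX replicate 1 and VEH replicate 2. Replicate 3 of either group correlated at -0.72 to -0.86 with replicates 1 and 2 of the other. The deviations of a group sum to 0, so a replicate 3 that stands apart in both groups makes replicates 1 and 2 alike. The check therefore cannot show that numbers 1 and 2 are pairs. Alternatives were the number as a block, a pseudocount of 16, no filter or a minimum of 100, centring, repeated quantile normalization, an intensity trend, probe set means, and arrays left out. Red blood cell genes on the array (2 of 3 listed) summed to 29.8 to 44.3 per array and were not above the limit. Marker sums were 8155 to 28639 for astrocytes, 8753 to 28787 for oligodendrocytes and 1554 to 2555 for microglia and macrophages. Figures were drawn with matplotlib 3.10.9.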

Additional observations from a re-analysis of the deposited data

How the results depend on the processing

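No member passed limma's threshold under any alternative (0 of 10 genes in each), and the smallest adjusted p of a member probe set in any of them was 0.540. Over all probe sets 0 passed, except 1 with the replicate block when both replicate 3 arrays were left out, an alternative chosen after seeing the data. The replicate block changed no call. In a balanced design it cannot move an estimate, so the median difference of the 10 genes is -0.38 with it too, and the intensity trend and the filters cannot move one either. With 1 array left out that median ran from -0.43 to -0.11, being -0.11 without FLX replicate 3 and -0.19 without VEH replicate 1. The number of genes with FLX wholly below VEH was 6 without both replicate 3 arrays, against 2 with all arrays, fewer arrays having to separate.

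Of the 19 tested probe sets 8 kept their sign in all alternatives. With 1 array left out they ran from -0.93 to -0.50 (Ier2), -0.74 to -0.37 (Gadd45b 1450971_at, its other tested probe set staying at -0.45 or lower), -0.75 to -0.22 (Gadd45g), -0.58 to -0.02 and -0.69 to -0.31 (Btg2), -0.45 to -0.06 (Btg1 1437455_a_at) and 0.10 to 0.48 (Klf6 1418280_at). The others ran from -1.41 to 0.30 (Klf2), -1.74 to 0.49 and -1.74 to 0.04 (Klf4), -0.46 to 0.05 (Btg1 1426083_a_at), -0.30 to 0.21 (Gadd45a), -0.16 to 0.45 and -0.29 to 0.52 (Ier5). The other Klf6 probe sets ran from -0.09 to 0.10 (1433508_at), -0.04 to 0.15 (1447448_s_at), -0.09 to 0.27 (1427742_a_at) and -0.10 to 0.11 (1459718_x_at). Without both replicate 3 arrays, with or without the replicate block, Ier5 was at -0.03 and -0.10, and Klf6 1427742_a_at and 1433508_at were both at -0.01. Repeated quantile normalization put Klf6 1433508_at at -0.02 and 1459718_x_at at -0.00, and centring put the latter at -0.02. Klf2 and Klf4 turned sign where the low replicate 3 array remained in VEH only, as given above. Why replicate 3 differed was not tested, nor was the cause of the other changes. Of the 22 probe sets 3 lay below the limit of 50 and have no test.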
